A study of Mus musculus with 12 samples.

Results

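Aminoacyl-tRNA synthetases are the enzymes that load each tRNA with its amino acid. The 35 synthetase genes described here are those of a fixed list of cytosolic and mitochondrial enzymes, matched by gene symbol among the 25097 genes of the tables. They comprise 20 cytosolic genes and 15 mitochondrial genes, the latter with symbols ending in 2, and all 35 were found and passed the filter on low counts. RNA was sequenced from G1E-ER-GATA-1 cells, a mouse erythroid precursor line that lacks its own GATA-1 and carries GATA-1 fused to the estrogen receptor ligand domain, so that estradiol switches the factor on. The 12 libraries formed 4 groups of 3, named here by genotype and treatment. WT cells were left untreated or were kept for 48 h with 1 µM estradiol. Mutant cells, labelled double mutants and carrying changes in cis-elements of Alas2, the erythroid enzyme that opens heme synthesis, were given estradiol for 48 h without or with 1 mM 5-aminolevulinic acid (5-ALA), the product of that enzyme. All 4 groups thus share the absence of endogenous GATA-1 and the presence of the fusion protein. Untreated mutant cells were not analysed here, and the labels give neither the number of mutant clones nor whether replicates were separate cultures, so p-values measure the spread between these libraries, which may be technical.

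Each synthetase first joins its amino acid to AMP and then passes it to the end of the matching tRNA, which the ribosome reads. Mammalian cells keep separate nuclear genes for most cytosolic and mitochondrial enzymes, whereas glycyl- and lysyl-tRNA synthetase (Gars, Kars) each serve both compartments from 1 gene. Several cytosolic enzymes are held in a multi-synthetase complex, here Dars, Eprs, Iars, Kars, Lars, Mars1, Qars and Rars. A number of cytosolic synthetase genes are known targets of ATF4, the transcription factor of the amino acid response, and maturing erythroid cells are known for heavy synthesis of globin and for the later loss of their mitochondria.

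The libraries held 20309085 to 43548387 expected counts. Alas2 was at 4.76 to 6.19 TPM, the length-scaled share of all transcripts, in untreated WT cells, 3513 to 3543 in WT cells with estradiol, 4.87 to 10.18 in mutant cells and 9.67 to 10.68 in mutant cells with 5-ALA. The summed level of the 4 adult globins was 753.88 to 838 TPM in untreated cells, 184970 to 186564 in WT cells with estradiol, 66866 to 68619 in mutant cells and 167060 to 178624 after 5-ALA. The summed level of 5 megakaryocyte markers was 185 to 190, 495 to 507, 133 to 135 and 208 to 211 TPM in the same order of groups, and that of 3 mast cell markers was 201 to 210 TPM in untreated cells and at most 2.36 elsewhere, with Mcpt8 and Fcer1a at 0 in every group. Marker sums of macrophages and granulocytes, lymphocytes and fibroblasts were at most 0.43 TPM. The part of these markers in the results below was not tested.

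The 20 cytosolic synthetase mRNAs together made up 4849 ± 34.1 TPM (SD, n = 3) in untreated WT cells and 1517 ± 9.02 after estradiol. In mutant cells with estradiol their sum was 2588 ± 41.8 TPM, and with 5-ALA added it was 2446 ± 40.3. The groups did not overlap in this sum, and mutant cells lay between the untreated and the estradiol-treated WT cells. The mitochondrial sum without Lars2, which is treated separately below, was 458 ± 3.57, 114 ± 2.19, 154 ± 1.64 and 135 ± 2.34 TPM in the same order of groups. In bulk RNA, fewer cells of a type and less RNA per cell cannot be told apart, and TPM is a share of all transcripts, so a rise in globin mRNA lowers the TPM of other genes.

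**Figure D1:**
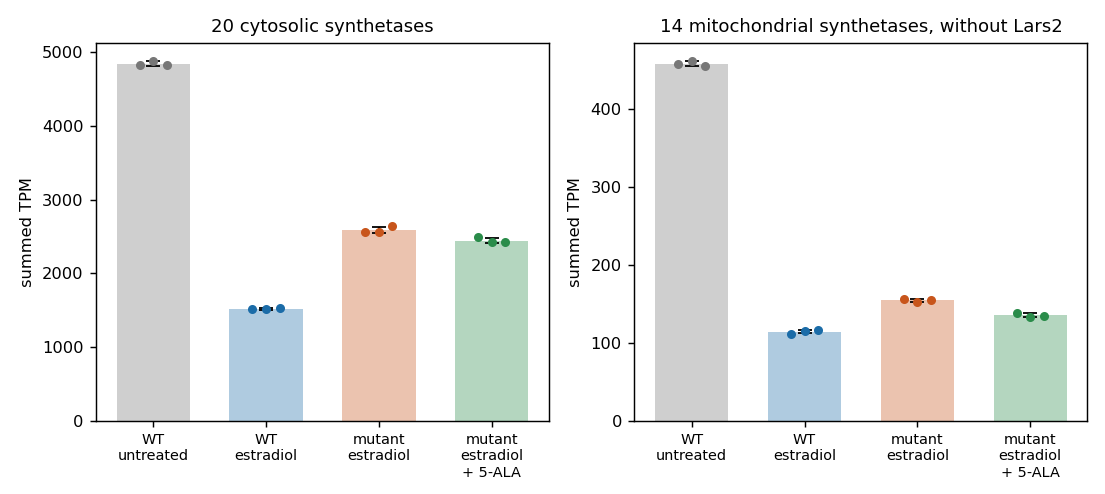
Summed TPM of the 20 cytosolic synthetases (left) and of the 14 mitochondrial synthetases other than Lars2 (right) in each group; points are libraries, bars are means and error bars are SD. The cytosolic sum falls from 4849 to 1517 with estradiol in WT cells and stands at 2588 in mutant cells.

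The order of the genes by TPM, a scale per transcript length, also differed between groups. In untreated cells the highest means belonged to tyrosyl-tRNA synthetase Yars at 401 ± 21.8 TPM and asparaginyl-tRNA synthetase Nars at 400.3 ± 3.78, which did not differ beyond their spread. After estradiol the highest cytosolic means were those of tryptophanyl-tRNA synthetase Wars at 168 ± 1.92 TPM, alanyl-tRNA synthetase Aars at 165 ± 2.67 and seryl-tRNA synthetase Sars at 156 ± 6.04. Wars and Aars overlapped between libraries. Aars, Sars and Wars, grouped after their values were seen, held 14.5 ± 0.250% of the cytosolic sum in untreated cells, 32.3 ± 0.207% in WT cells with estradiol, 41.6 ± 0.957% in mutant cells and 40.3 ± 0.393% with 5-ALA. The lowest mean in each of the 3 estradiol groups was that of mitochondrial glutamyl-tRNA synthetase Ears2, at 1.23 ± 0.16, 0.96 ± 0.08 and 1.55 ± 0.06 TPM. Mitochondrial methionyl-tRNA synthetase Mars2 had the next lowest mean, at 1.53 ± 0.05, 2.24 ± 0.13 and 1.86 ± 0.07. Cars2, at 1.58 ± 0.36 in WT cells with estradiol and 1.97 ± 0.26 with 5-ALA, overlapped Mars2 in both. Its lowest library in WT cells with estradiol (1.16) lay within the range of Ears2, so the place of Cars2 in this order is within the spread in these groups. In mutant cells without 5-ALA all Cars2 libraries lay above those of Mars2. Ears2 lay below Mars2 in every library of the 3 estradiol groups.

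The comparison of WT cells with and without estradiol asks which of these genes respond when GATA-1 activity is switched on. Most fell: 18 of 20 cytosolic genes and 12 of 15 mitochondrial genes were lower at an adjusted p below 0.05 by edgeR's quasi-likelihood test, against 46.4% of the 12115 genes tested. The median log2 fold change was -1.45 for the cytosolic and -2.29 for the mitochondrial genes, against -0.03 for all genes tested. A called fall of at least 2-fold was found for 26 of the 35 members, against 30.3% of all genes. By CPM, 3 members lay wholly above the untreated range and 30 wholly below it, against 5280 and 5652 of all 12115 genes tested. All 8 members of the multi-synthetase complex fell, with a median of -1.63 and a range from -2.27 (Iars) to -0.86 (Qars). The genes called higher were Wars, Wars2 and Fars2, where 43.3% of all genes were called higher. Aars and Lars2 were not called.

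Valyl-tRNA synthetase Vars fell furthest among the cytosolic genes. Its level was 361, 367 and 349 TPM in the 3 untreated libraries and 42.0, 33.0 and 36.9 after estradiol, with a log2 fold change of -3.01 (SE 0.0394, adjusted p = 1.41e-22). The groups did not overlap, and the fitted level was 8.04-fold lower. Farsb, the beta subunit of the cytosolic phenylalanyl enzyme, went from 298, 299 and 309 TPM to 35.7, 32.0 and 33.4 (log2 fold change -2.87, SE 0.0387, adjusted p = 1.54e-28). Its partner subunit Farsa fell by 1.24 on the log2 scale, from 205 to 71.6 TPM on average, so that the 2 subunits of 1 enzyme changed by unequal amounts. Exons of Farsb overlap Sgpp2 on the other strand, and 7.28% of the 50-base windows of its transcripts also occur in another gene.

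Gars was at 320.02, 328 and 337 TPM before and 46.5, 45.3 and 46.1 after estradiol (log2 fold change -2.55, SE 0.0296, adjusted p = 5.3e-34). Kars, the other gene that serves both compartments, was at 302, 300.5 and 301 TPM before and 69.2, 68.0 and 69.1 after, a log2 fold change of -1.84 (SE 0.0261). Both genes therefore fell with groups far apart. Isoleucyl-tRNA synthetase Iars went from 173, 174 and 177 TPM to 31.4, 29.7 and 27.6 (log2 fold change -2.27, SE 0.0271, adjusted p = 1.14e-33). Leucyl-tRNA synthetase Lars was at 179.7, 179 and 186 TPM in untreated libraries and at 30.9, 33.4 and 31.7 with estradiol (log2 fold change -2.22, SE 0.0301, adjusted p = 3.52e-32). Eprs encodes a fused enzyme for glutamate and proline. Its level went from 286, 290.0 and 290 TPM to 51.5, 51.6 and 53.6 (log2 fold change -2.18, SE 0.0237, adjusted p = 1.06e-34). The remaining cytosolic genes that fell had log2 fold changes from -1.90 (Yars) to -0.80 (Sars).

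Aars and Wars stood apart from this fall. Aars was at 188, 180 and 181 TPM in untreated libraries and at 163, 164 and 168 with estradiol. On TMM-scaled CPM (read counts relative to library size) it was 431 ± 7.004 and 443 ± 9.12, a log2 fold change of 0.04 (SE 0.0256, adjusted p = 0.136), while on log2(TPM + 1) the difference was -0.15 and the median of all genes was itself -0.23. Wars was at 170, 181 and 179 TPM before and 168, 170 and 167 after estradiol. Its log2 fold change was 0.14 (SE 0.0221, adjusted p = 1.22e-06) on counts and -0.07 on log2(TPM + 1), so that its direction turned with the scaling, while it lay above the median of all genes on both scales. For Aars, 1326 of 9282 exonic bases overlap Exosc6 on the same strand, and Exosc6 has no entry among the 25097 genes. Reads of these bases cannot be told apart between Aars and Exosc6, here and in the comparisons below.

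Among mitochondrial genes the cysteinyl enzyme Cars2 fell furthest, from 28.8, 28.02 and 30.1 TPM to 1.83, 1.74 and 1.16 (log2 fold change -3.88, SE 0.105, adjusted p = 2.93e-24), a level 14.7-fold lower. Cars2 also had the lowest expected count of any member, 30.77 in 1 library, and 17.8% of its windows are shared with the overlapping gene Naxd. The valyl enzyme Vars2 went from 50.2, 52.9 and 50.6 TPM to 5.29, 3.79 and 6.75 (log2 fold change -3.01, SE 0.0698, adjusted p = 2.86e-26). Ears2, which charges mitochondrial tRNAs with glutamate, went from 11.67, 11.9 and 12.4 TPM to 1.17, 1.12 and 1.41 (log2 fold change -2.86, SE 0.0929, adjusted p = 1.76e-22). Mars2 was at 12.69, 12.74 and 12.41 TPM before and 1.59, 1.5 and 1.51 after estradiol (log2 fold change -2.75, SE 0.0484, adjusted p = 2.23e-29). All 4 genes had groups that did not overlap, as had most genes tested in this comparison. The arginyl enzyme Rars2 went from 99.8, 94.1 and 96.8 TPM to 12.9, 14.2 and 12.03 (log2 fold change -2.59, SE 0.0497, adjusted p = 1.98e-28), and the asparaginyl enzyme Nars2 fell by 2.40 on the log2 scale. The others that fell ranged from -2.29 (Yars2 and Sars2) to -0.38 (Hars2).

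The mitochondrial genes that rose were Fars2, the phenylalanyl enzyme, and Wars2, the tryptophanyl enzyme. Fars2 went from 14.97, 15.01 and 14.64 TPM to 17.7, 18.4 and 18.4 (log2 fold change 0.58, SE 0.0516, adjusted p = 1.56e-11). Wars2 was at 6.61, 6.46 and 6.68 TPM in untreated libraries and at 7.65, 9.02 and 8.03 with estradiol (log2 fold change 0.47, SE 0.0560, adjusted p = 6.92e-09). Both had groups that did not overlap. Exons of Fars2 overlap Nrn1 and Lyrm4 on the other strand, and the mean length that RSEM assigned to Wars2 differed by up to 29.0% between groups.

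**Figure D2:**
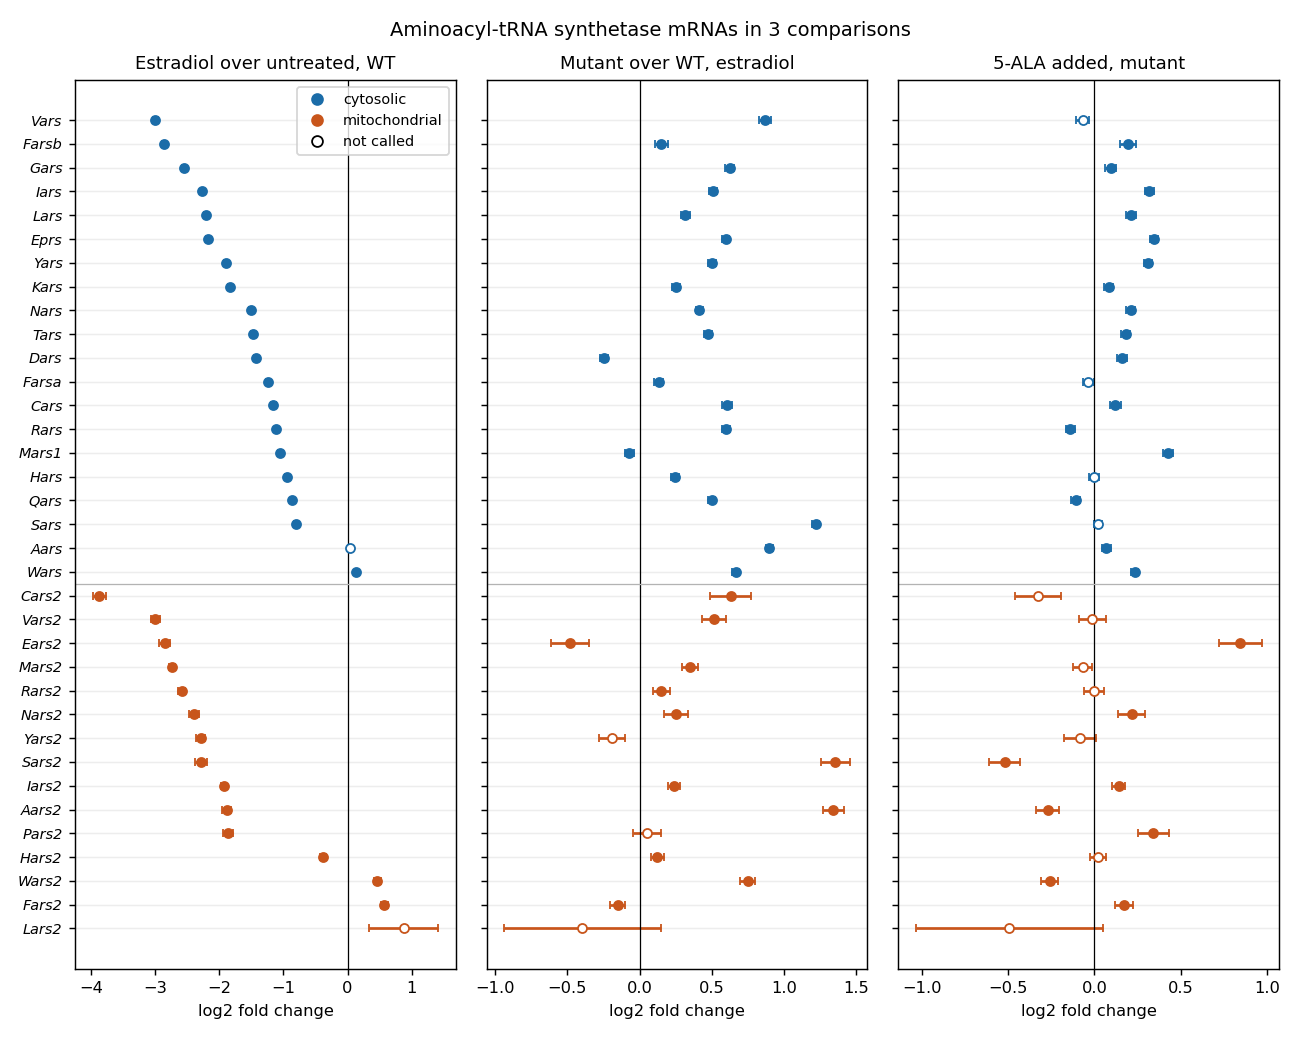
Log2 fold changes of the 35 synthetase genes in 3 comparisons, cytosolic above and mitochondrial below the grey line, each ordered by the first comparison; bars are 1 SE, filled points were called at an adjusted p below 0.05, and the x axes differ between panels. Of the 35 genes, 30 are lower with estradiol in WT cells, 28 are higher in mutant than in WT cells, and changes with 5-ALA are smaller and of mixed sign.

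The mitochondrial leucyl enzyme Lars2 was set by single libraries. Its level was 257, 273 and 476 TPM in untreated cells, 913, 299 and 303 in WT cells with estradiol, 720, 331 and 281 in mutant cells, and 270, 243 and 303 with 5-ALA. Replicate 3 of the untreated group and replicate 1 of both the WT and the mutant estradiol groups were the high ones. In the same 3 libraries Gm42418, a gene chosen for comparison after its values were seen and one that overlaps the ribosomal RNA repeat, was at 2928 to 5909 TPM, against 1076 to 1559 in the other 9 libraries. Pearson's r between the log2 deviations of the 2 genes from their group means was 0.993 over 12 libraries that share depth and preparation. Lars2 was not called in any of the 4 comparisons, with log2 fold changes of 0.88, -0.40, -0.49 and -0.89 and SEs of 0.541 to 0.545. Without robust estimation it was called higher with estradiol in WT cells (adjusted p = 0.0366) and lower in mutant cells with 5-ALA than in WT cells (adjusted p = 0.0496). With the 3 high libraries left out, a choice made after seeing the data, its estradiol response in WT cells was 0.51 (adjusted p = 0.0114) and the other 3 values lay between -0.14 and 0.02. Without the same 3 libraries 18 cytosolic and 12 mitochondrial genes fell with estradiol in WT cells, 18 and 7 were higher in mutant than in WT cells, 11 and 4 were higher with 5-ALA, and 19 and 10 were higher in mutant cells with 5-ALA than in WT cells, against the counts given with each comparison. The part of ribosomal RNA in the Lars2 values was not tested.

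**Figure D3:**
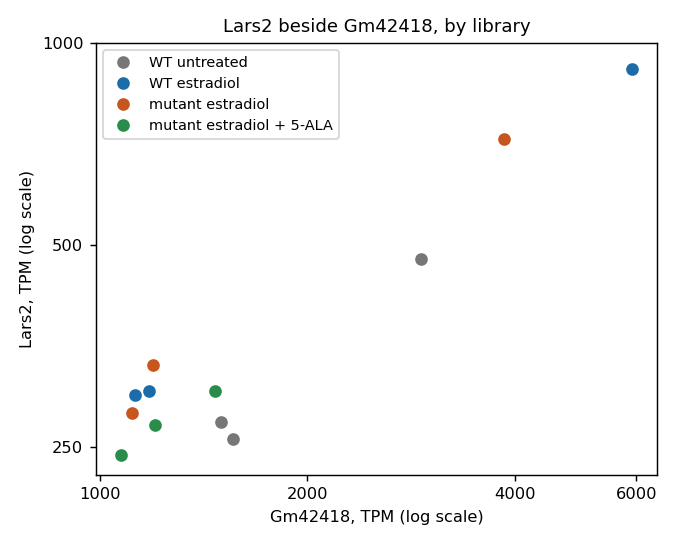
Lars2 against Gm42418 in TPM for the 12 libraries, both axes logarithmic, coloured by group. In 3 libraries, from 3 different groups, both genes are high, with Lars2 at 476 to 913 TPM against 243 to 331 in the other 9.

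Cytosolic and mitochondrial enzymes for the same amino acid were set side by side in 16 pairs. With estradiol in WT cells the ratio of cytosolic to mitochondrial TPM rose in every library past the untreated range in 8 pairs, fell below it in 7 and overlapped in 1. The 7 include Lars over Lars2, although Lars2 was set by single libraries. They also include Hars over Hars2, whose exons share 195 bases on opposite strands. The shared windows are 7.53% of those of Hars and 3.37% of those of Hars2, a limit on this pair in every comparison. Ratios of other gene pairs were not computed. Among single genes by CPM, 5280 of the 12115 tested lay wholly above the untreated range and 5652 wholly below it. Aars over Aars2 went from 16.2 ± 0.897 to 65.9 ± 2.66, since Aars2 fell by 1.89 on the log2 scale and Aars was not called. Cars over Cars2 went from 2.54 ± 0.137 to 19.7 ± 4.01. Farsb over Fars2 went the other way, from 20.3 ± 0.707 to 1.86 ± 0.144. The ratio Vars over Vars2 overlapped, both genes having a log2 fold change of -3.01. Across 15 pairs without Lars2, some of which share an enzyme, Pearson's r between the cytosolic and mitochondrial log2 fold changes was 0.15, as a description.

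**Figure D4:**
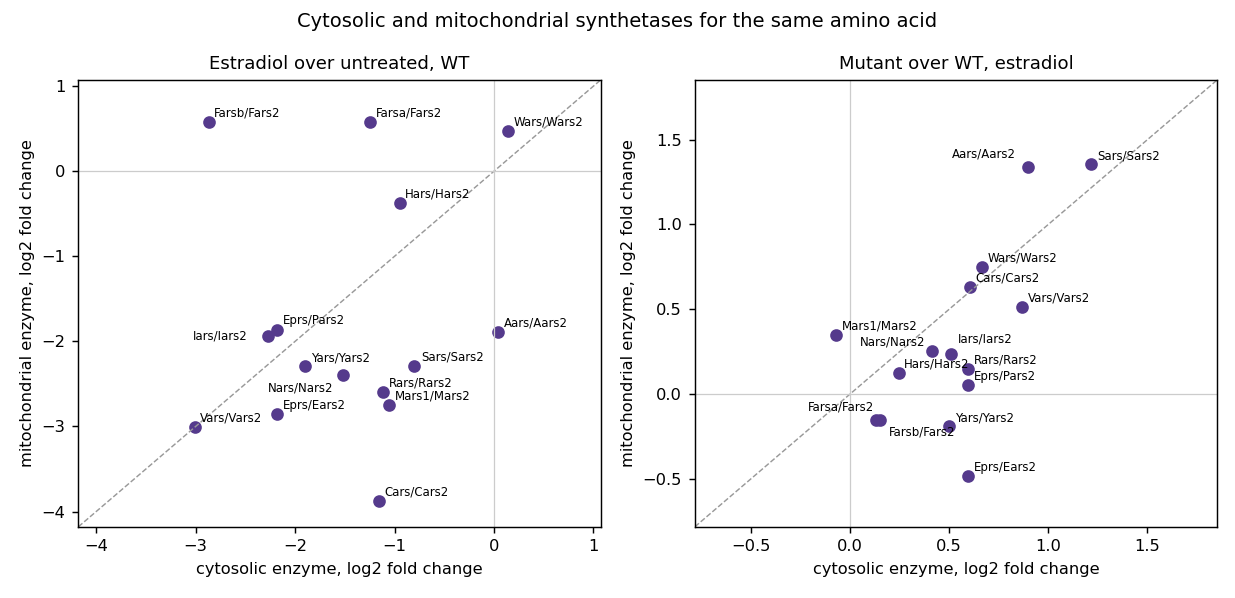
Log2 fold change of the mitochondrial against the cytosolic enzyme for 15 amino acid pairs without Lars2, with estradiol in WT cells (left) and in mutant against WT cells (right); the dashed line marks equal change. Pairs scatter widely on the left, and on the right the seryl and alanyl pairs lie highest.

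The comparison of mutant with WT cells, both with estradiol, asks which synthetase genes differ when Alas2 mRNA stays low. It shares its WT libraries with the comparison above. Most synthetase mRNAs were higher in mutant cells: 18 of 20 cytosolic genes and 10 of 15 mitochondrial genes, against 35.1% of all genes tested. Called lower were Dars and Mars1 among cytosolic genes and Ears2 and Fars2 among mitochondrial genes, against 33.6% of all genes, and Lars2, Pars2 and Yars2 were not called. The median log2 fold change was 0.50 for cytosolic, 0.24 for mitochondrial and -0.01 for all genes tested. Called differences of at least 2-fold were found for 3 members, Sars, Sars2 and Aars2, all higher, where 5.18% of all genes were higher by that much. Of the multi-synthetase complex 6 of 8 members were higher and 2 lower, while all 12 other cytosolic genes were higher.

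The seryl and alanyl enzymes of both compartments led the list. Values per library for Sars, Aars, Wars and their mitochondrial counterparts are given because these genes stood out after their values were seen. Sars was at 353, 335 and 341 TPM in untreated cells, 160, 149 and 159 in WT cells with estradiol, 406, 423 and 457 in mutant cells and 377, 351 and 362 with 5-ALA. The Sars level in mutant cells was above that of WT cells with estradiol in every library, with a log2 fold change of 1.22 (SE 0.0265, adjusted p = 1.12e-25). Aars was at 342, 341 and 372 TPM in mutant cells, above all untreated and all estradiol-treated WT libraries given above (log2 fold change over WT with estradiol 0.90, SE 0.0256, adjusted p = 7.83e-23). Wars was at 298, 297 and 295 TPM, also above every WT library (log2 fold change 0.66, SE 0.0219). Vars, at 84.4, 81.9 and 79.6 TPM, was higher than in WT cells with estradiol (log2 fold change 0.87, SE 0.0421, adjusted p = 9.83e-13) but far below the untreated cells.

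Sars2 was at 18.9, 18.5 and 15.8 TPM in untreated cells, 2.70, 2.77 and 3.5 in WT cells with estradiol and 7.99, 9.12 and 8.56 in mutant cells (log2 fold change 1.35, SE 0.102, adjusted p = 9.35e-13). Aars2 was at 11.49, 11.77 and 10.61, then 2.37, 2.50 and 2.65, then 7.02, 7.22 and 7.42 TPM in the same groups (log2 fold change of mutant over WT 1.34, SE 0.0755, adjusted p = 1.18e-15). Both lay between the 2 WT groups in mutant cells, without overlap. Wars2 was at 17.1, 16.7 and 16.4 TPM in mutant cells, above both WT groups (log2 fold change 0.75, SE 0.0521, adjusted p = 1.59e-13). Across the 15 pairs without Lars2, Pearson's r between the cytosolic and mitochondrial log2 fold changes was 0.65, as a description. The cytosolic-to-mitochondrial ratio was above the WT range in 8 of the 16 pairs, below it in 3 (Aars, Mars1 and Wars) and overlapping in 5. Among single genes by CPM, 4393 of the 12115 tested lay wholly above the WT range and 4291 wholly below it.

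Other members were higher by smaller amounts. Gars was at 80.1, 83.3 and 79.5 TPM in mutant cells (log2 fold change 0.62, SE 0.0315) and Eprs at 96.1, 90.1 and 88.2 (0.60, SE 0.0238). Iars was at 50.3, 47.9 and 47.1 TPM (0.51, SE 0.0289), Lars at 44.8, 46.1 and 45.8 (0.32, SE 0.0323) and Kars at 94.2, 92.4 and 94.1 (0.25, SE 0.0278). Each of these 5 genes was above all WT libraries with estradiol and below all untreated libraries. Farsb was at 43.5, 44.8 and 43.8 TPM (log2 fold change 0.15, SE 0.0457, adjusted p = 0.00564). In mitochondria, Vars2 was at 6.48, 9.56 and 10.03 TPM (0.51, SE 0.0814), Cars2 at 2.60, 3.19 and 2.62 (0.63, SE 0.143), Mars2 at 2.29, 2.34 and 2.09 (0.35, SE 0.0571) and Rars2 at 18.4, 15.8 and 16.8 (0.15, SE 0.0598). All 4 were far below the untreated level. Mutant and WT groups overlapped for Vars2 by TPM and for Rars2 by CPM.

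The genes that were lower in mutant cells showed small differences. Ears2 was at 1.06, 0.91 and 0.92 TPM against 1.17, 1.12 and 1.41 in WT cells (log2 fold change -0.48, SE 0.131, adjusted p = 0.00248). The aspartyl enzyme Dars was lower by CPM (log2 fold change -0.25, SE 0.0296, adjusted p = 1.87e-08), while its TPM of 76.2, 70.5 and 71.7 overlapped the 73.7, 74.6 and 76.9 of WT cells. Fars2 had a log2 fold change of -0.15 (SE 0.0505, adjusted p = 0.00948), and Mars1, the methionyl enzyme, had one of -0.07 (SE 0.0285, adjusted p = 0.0317) with overlapping groups. Both turned positive, at 0.04 and 0.06, on log2(TPM + 1), where the median of all genes was 0.12 and neither was called. Without mutant replicate 1 1 cytosolic and 1 mitochondrial gene were called lower, and without WT estradiol replicate 1 or 3, 1 cytosolic gene was.

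**Figure D5:**
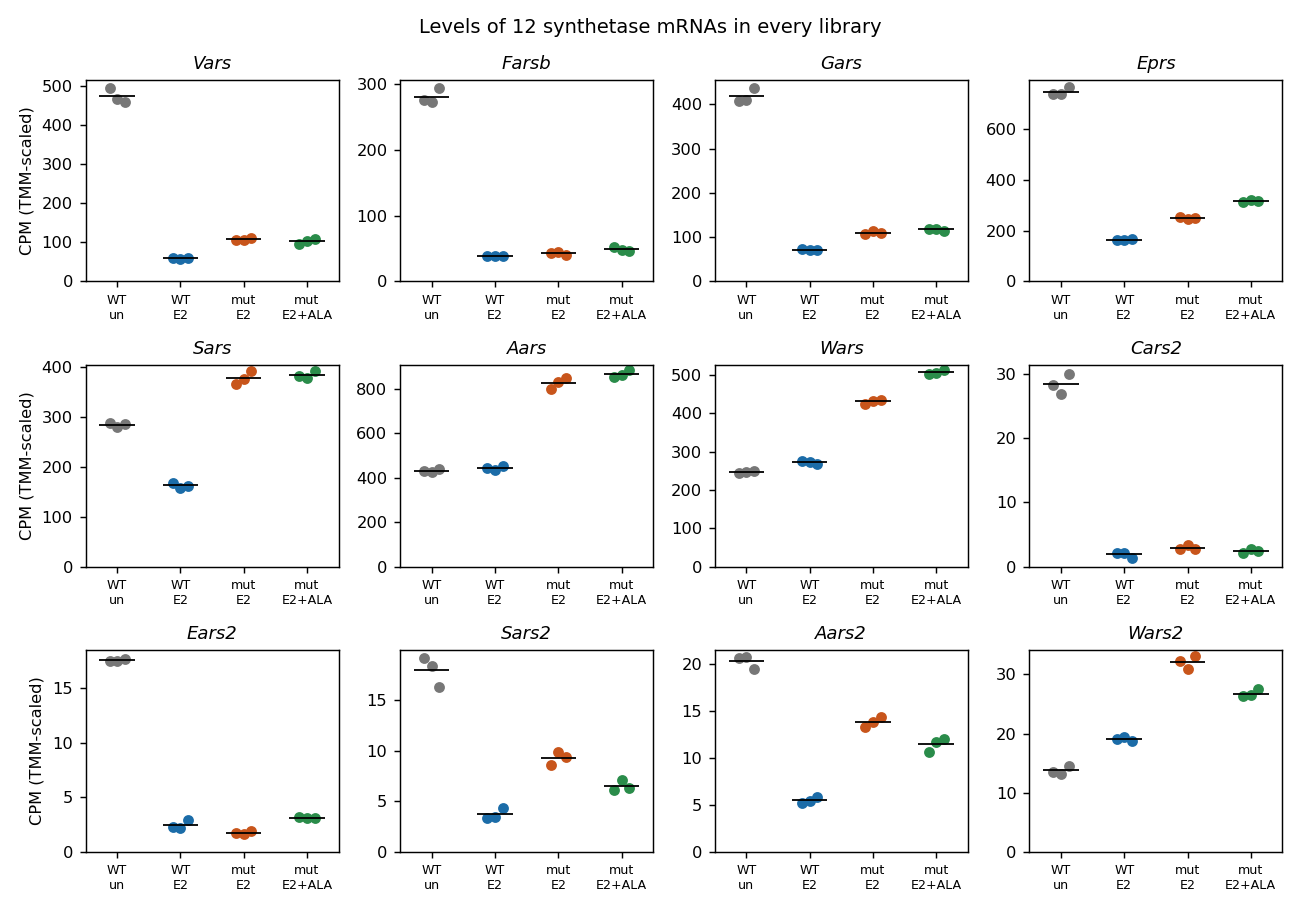
TMM-scaled CPM of 12 synthetase genes in every library (points) with group means (lines), y axes starting at 0; E2 is estradiol and un is untreated. Sars, Aars and Wars stand higher in mutant cells than in untreated WT cells, whereas Vars, Farsb, Gars and Eprs stay well below the untreated level.

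Genes that work beside the synthetases were counted from a list of 21 tRNA charging partners. With estradiol in WT cells 17 of 21 fell and 1 rose, against 46.4% and 43.3% of all genes, with a median of -1.68, led by the threonyl-like enzyme Tarsl2 at -4.12 and the D-aminoacyl-tRNA deacylase Dtd1 at -3.71. The tRNA exporter Xpot had a log2 fold change of 0.07 (SE 0.0225). In mutant against WT cells 12 of the 21 were higher and 6 lower, against 35.1% and 33.6% of all genes, with Tarsl2 at 1.25 and Pstk, a kinase of the selenocysteine pathway, at 1.2. Of 14 genes of the amino acid response, 12 passed the filter on low counts. In the mutant 11 of these 12 were higher, against the same 35.1%, with a median of 1.25, and the cystine transporter Slc7a11 was lower at -2.34. Psat1, a serine synthesis enzyme, was at 22.6, 24.0 and 18.1 TPM in WT cells with estradiol and 133, 137 and 141 in mutant cells. Atf4 mRNA, chosen after its values were seen, was at 94.0, 94.8 and 94.5 TPM in WT and 268, 269 and 277 in mutant cells (log2 fold change 1.33, SE 0.0296). With estradiol in WT cells, 4 of the 12 rose and 6 fell, against the 43.3% and 46.4% above, and Atf4 was not called (0.06).

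Promoter windows from RefSeq (GRCm38.p6, 250 bases before to 50 after a start site) were searched on both strands for the composite element bound by ATF4 and C/EBP, TGATGNAA. Windows were found for 26 of the 35 members, 13 in each compartment. The element occurred in 5 of these 26, or 19.2%, and in 4.51% of all 27025 genes with a window, whether or not they passed the filter on low counts. The 5 genes were cytosolic: Yars, Gars, Aars, Iars and Tars. A match in each is shown with 11 bases on either side, 5′ to 3′ on the strand of the gene, with the match to the element or its reverse complement in capitals.
Yars, chr4:129189895-129189924, plus strand: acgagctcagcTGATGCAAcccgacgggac
Gars, chr6:55037960-55037989, plus strand: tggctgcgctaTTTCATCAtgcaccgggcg
Aars, chr8:111033840-111033869, plus strand: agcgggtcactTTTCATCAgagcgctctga
Iars, chr13:49682126-49682155, plus strand: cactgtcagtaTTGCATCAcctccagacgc
Tars, chr15:11399655-11399684, minus strand: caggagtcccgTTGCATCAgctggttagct
In mutant over WT cells the log2 fold changes of the 5 genes were 0.90 (Aars), 0.62 (Gars), 0.51 (Iars), 0.50 (Yars) and 0.47 (Tars, the threonyl enzyme), and the median of all 20 cytosolic genes was 0.50. The windows of Sars and Sars2, which were higher by 1.22 and 1.35, held no match to the element. The ETS motif CCGGAAG was present in 9 of the 26 members, or 34.6%, and in 9.93% of all genes with a window. The NRF1 motif was in 0 of 26 and in 1.07% of these genes. A match of letters does not show that a factor binds there.

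The comparison of mutant cells with and without 5-ALA asks what changes when the product of the Alas2 enzyme is supplied; it shares its mutant libraries with the comparison above. Changes were small and their direction depended on the scaling: on counts 14 of 20 cytosolic genes were called higher and 2 lower, whereas on log2(TPM + 1) 3 were higher and 9 lower. For mitochondrial genes the counts were 5 higher and 3 lower by CPM, and 1 and 7 by TPM. Of all genes tested 21.6% were higher and 21% lower by CPM. On log2(TPM + 1) more genes were called in either direction, 6525 of 12115 against 5163 on counts. Their split by direction was not counted, so the TPM counts of members by direction have no matching share of all genes. The TPM scale moved the median of all genes to -0.15, against 0.01 on counts, with the globin sum higher in the 5-ALA libraries as given above. On each scale 15 of 20 cytosolic and 6 of 15 mitochondrial genes lay above the median of all genes, but Sars was above it only on counts (0.02, and -0.24 on log2(TPM + 1)) and Qars only on log2(TPM + 1) (-0.13, and -0.11 on counts). The cytosolic median was 0.14 by CPM and the mitochondrial median -0.01.

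Ears2 showed the largest change with 5-ALA among called genes, from 1.06, 0.91 and 0.92 TPM to 1.48, 1.59 and 1.59 (log2 fold change 0.85, SE 0.123, adjusted p = 1.75e-06), with no overlap. It had only 35 to 71 expected counts per library in mutant cells without 5-ALA. Its assigned length differed by up to 15.5% between groups, and 89 of its exonic bases overlap Ubfd1 on the other strand. Among the other genes that rose, Mars1 was highest at 0.43 (SE 0.0276, adjusted p = 1.56e-13), from 66.0, 59.8 and 59.1 TPM to 70.5, 72.6 and 72.3. Eprs went to 101, 101 and 98.8 TPM (0.35, SE 0.0230, adjusted p = 3.05e-13). Mars1 shares 68 exonic bases with Ddit3 on the other strand, which is 0.545% of its windows. Next came the prolyl enzyme Pars2 at 0.34 (SE 0.0912, adjusted p = 0.00306), Iars at 0.32 (SE 0.0271, adjusted p = 6.69e-11) and Yars at 0.31 (SE 0.0240, adjusted p = 9.34e-12).

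Called lower were Sars2, Aars2, Wars2, Rars and Qars. Sars2 went from 7.99, 9.12 and 8.56 TPM to 4.96, 5.70 and 5.04 (log2 fold change -0.52, SE 0.0910, adjusted p = 2.63e-05). Aars2 went to 4.91, 5.29 and 5.39 TPM (-0.27, SE 0.0670, adjusted p = 0.00152) and Wars2 to 14.1, 14.1 and 12.5 (-0.26, SE 0.04995, adjusted p = 9.04e-05). With effective length offsets Wars2 was at -0.11 and was not called (adjusted p = 0.193). These 3 are also the mitochondrial genes with the largest difference between mutant and WT cells, and since both comparisons share the mutant libraries, these are not independent. The arginyl enzyme Rars had a log2 fold change of -0.14 (SE 0.0271, adjusted p = 9.35e-05). The glutaminyl enzyme Qars had one of -0.11 (SE 0.0255, adjusted p = 0.000987), which became 0.06 with effective length offsets; its assigned length differed by up to 19.5% between groups. The cytosolic-to-mitochondrial ratio rose past the mutant range in 7 of 16 pairs, fell below it in 3 and overlapped in 6. Among single genes by CPM, 3060 of the 12115 tested lay wholly above the mutant range and 2887 wholly below it.

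Mutant cells with 5-ALA were also set against WT cells with estradiol, with libraries shared with both comparisons above. Higher were 19 of 20 cytosolic genes, against 33.3% of all genes, and lower was Dars (log2 fold change -0.09, SE 0.0294, adjusted p = 0.0116), against 29% of all genes. Of the mitochondrial genes 11 of 15 were higher, Yars2 was lower (-0.28, SE 0.0924, adjusted p = 0.0110), and Cars2, Fars2 and Lars2 were not called. The median log2 fold change was 0.64 for cytosolic and 0.36 for mitochondrial genes. The largest differences were those of Sars at 1.24 (SE 0.0265, adjusted p = 1.88e-25), Aars2 at 1.07 (SE 0.0776, adjusted p = 6.15e-13), Aars at 0.97 (SE 0.0256, adjusted p = 2.76e-23), Eprs at 0.94 (SE 0.0237, adjusted p = 8.25e-24), Wars at 0.90 (SE 0.0219, adjusted p = 3.91e-24) and Sars2 at 0.83 (SE 0.108, adjusted p = 9.61e-08). In these libraries the globin sum was 167060 to 178624 TPM, against 184970 to 186564 in WT cells. Wars was at 305, 301 and 303 TPM with 5-ALA and Aars at 316, 319 and 324, both above every WT library. Of the amino acid response list, 11 of 12 were higher than in WT cells, with a median of 1.14. Both lower calls and some higher calls rest on single libraries. Without WT estradiol replicate 3, neither Dars nor Yars2 was called, and Dars was not called without 5-ALA replicate 2 or 3. Rars2 lost its higher call without WT estradiol replicate 1 or 3 or 5-ALA replicate 1 or 2. Hars2 lost it without replicate 1 of either group, and Ears2 without WT estradiol replicate 1 or 2. Cars2 was called higher without replicate 1 of either group.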

How the data were processed

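Total RNA (TRIzol) was made into TruSeq libraries, per the labels' protocols. Per the submitters' processing notes, CASAVA 1.8.2, Bowtie 1.1.1, RSEM 1.2.20 and mm10 were used; no source used here gives the annotation release, the read length or the use of strand, so reads of overlapping genes cannot be told apart. Per the file headers, the deposited tables give RSEM expected counts per gene, which divide shared reads by a model. The authors' TPM values are scaled by length and depth within each library. The deposited FPKM values, fragments scaled by length and depth per the file headers, were not used. Depth was 20309085 to 43548387 expected counts per library, and intervals between replicates cover these libraries only.

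Symbols and positions came from GENCODE M21 (24746 of 25097 identifiers); Mars1 is listed there as Mars. Rounded expected counts were filtered by group (filterByExpr, 12115 genes kept), scaled by TMM and fitted in edgeR 4.0.16 (R 4.3.3) as 4 group means over 12 libraries with robust quasi-likelihood estimation, and p-values were adjusted by Benjamini-Hochberg over 12115 genes. The SE was approximated by dividing the size of each log2 fold change by the root of its F statistic. The common biological coefficient of variation was 0.0334, so small differences pass the test. The script was tested on simulated counts. Replicate numbers were not used to pair libraries.

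Per comparison, statistics were printed for up to 6 called members per direction with the largest change. Values per library were printed for the 6 cytosolic and 5 mitochondrial members that changed most, Lars2, Gars and Kars, with statistics for these too, and for members stated to be chosen later. Members and lists were chosen with earlier results of these data known. Alternatives were DESeq2 1.42.0, RLE size factors, other filters, limma 3.58.1 on log2(TPM + 1) and log2(TPM + 0.1), effective length offsets, only the groups compared, a replicate block, a 1.5-fold threshold test, no robust estimation and leaving out libraries. Protein sequences were not used here. The level of 1 single marker gene and 1 further promoter stretch are not reported here.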

Additional observations from a re-analysis of the deposited data

How the results depend on the processing

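The fall of most synthetases with estradiol in WT cells was seen under every alternative run, with 18 to 20 cytosolic and 11 or 12 mitochondrial genes lower. Over all members, comparisons and alternatives, 27 of 2520 values turned direction with a call in at least 1 of the settings compared. Of the others, 176 lost the call, 41 gained it and 2276 kept their call status. A turn between uncalled values was counted as kept, such as Lars2 with 5-ALA, -0.49 in the main fit and 0.02 without the 3 high-Gm42418 libraries. All but 1 of the 27 turns that involved a call came with limma on TPM. With log2(TPM + 1) they were, for estradiol in WT cells, Aars -0.15 and Wars -0.068; for mutant against WT, Mars1 0.061 and Fars2 0.037; and for 5-ALA, Aars -0.14, Dars -0.048, Gars -0.10, Kars -0.12, Sars -0.24, Tars -0.020, Fars2 -0.025, Iars2 -0.11 and Nars2 -0.012. With log2(TPM + 0.1) the same values were Aars -0.15 and Wars -0.068, Mars1 0.062 and Fars2 0.038, and Aars -0.14, Dars -0.048, Gars -0.11, Kars -0.12, Sars -0.24, Tars -0.021, Fars2 -0.026, Iars2 -0.11 and Nars2 -0.012. The TPM scale takes in the globin share of each library; other causes were not tested. The remaining turn was Qars with 5-ALA, 0.059 with effective length offsets.

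With both TPM scales, cytosolic genes higher with estradiol numbered 0, cytosolic genes lower in the mutant 0 and mitochondrial ones 1, cytosolic genes higher and lower with 5-ALA 3 and 9, mitochondrial ones 1 and 7, and cytosolic genes lower in mutant cells with 5-ALA than in WT 0. Cytosolic genes higher with estradiol numbered 2 with DESeq2, RLE size factors, the filter of 10 CPM, effective length offsets, only the groups compared, or the 3 high-Gm42418 libraries left out. With no filter, cytosolic and mitochondrial genes lower in the mutant numbered 1 each, and cytosolic genes lower with 5-ALA than in WT 0. Effective length offsets gave 1 cytosolic gene lower and 3 mitochondrial genes higher with 5-ALA, and 0 cytosolic genes lower with 5-ALA than in WT. Without the 3 high-Gm42418 libraries, 1 cytosolic and 1 mitochondrial gene were lower in the mutant. With no robust estimation, 2 mitochondrial genes were lower with 5-ALA than in WT and 3 were higher with estradiol, Lars2 being the gene gained in both. The 1.5-fold threshold test asks for larger changes: it left 0 genes higher with estradiol in either compartment, 4 cytosolic and 3 mitochondrial genes higher and 0 lower in the mutant, 0 in any direction with 5-ALA, and 10 cytosolic and 2 mitochondrial genes higher and 0 lower with 5-ALA than in WT. Of all 12115 genes this test called 8214, 2078, 242 and 1291 in either direction, in the same order of comparisons. For the alternatives, calls over all genes were counted in total only, not by direction.

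Leaving out 1 library at a time, cytosolic genes higher and lower numbered 1 to 2 and 18 with estradiol, 17 to 18 and 1 to 2 in the mutant, 11 to 14 and 2 to 3 with 5-ALA, and 19 and 0 to 1 in mutant cells with 5-ALA against WT. The mitochondrial ranges were 2 and 12, 8 to 10 and 1 to 3, 4 to 5 and 3 to 4, and 9 to 11 and 0 to 1. Deviations of same-numbered libraries from their group means correlated between -0.104 and 0.067. In the 4 comparisons 2, 0, 4 and 1 of 6 libraries correlated best with their own number. These correlations were weak, and with 3 libraries per group they cannot show whether the numbers mark shared batches. With a replicate block the counts were those reported, 18 cytosolic and 12 mitochondrial genes lower with estradiol among them, except that mitochondrial genes higher with 5-ALA than in WT numbered 10, Rars2 losing its call at 0.14 (adjusted p = 0.0521). Depth limits the low mitochondrial genes most, with 30.77 expected counts for Cars2 at the lowest.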
